A study of Rattus norvegicus with 2 samples.

Results

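Transcript levels of 5 genes of the fibroblast growth factor (FGF) system were described in rat embryonic stem cells: the ligand gene Fgf4 and the receptor genes Fgfr1, Fgfr2, Fgfr3 and Fgfr4. They were taken by symbol from a table of 23282 genes, and each had 1 row. The cells were the wild-type Dark Agouti line DA-EC8/Rrrc from the Rat Resource Center, at passage 30 and labelled with a normal karyotype. They received no treatment beyond growth in 2i medium, and both libraries form 1 group of 2 samples, which the series design calls biological replicates. The labels do not say whether these came from separate cultures. All values come from a single line, and there is no contrast between conditions. Levels are in RPKM, reads scaled to the length of the gene model and to library size. This allows genes of different length to be set side by side, as far as the model lengths hold. Those lengths are not given, and the SD between replicates does not cover errors in them.

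Most FGF ligands are secreted proteins that bind receptor tyrosine kinases together with heparan sulfate chains, and the bound receptors activate the RAS to ERK kinase cascade. In mouse embryonic stem cells Fgf4 is transcribed under the control of Oct4 and Sox2, and its protein acts back on the same cells, where signalling through ERK readies them for differentiation. 2i medium is known for holding an inhibitor of MEK, the kinase directly above ERK, beside an inhibitor of GSK3. The MEK step lies below the receptors, so their transcripts and the output of the pathway are separate measurements.

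The smallest read totals that fit the steps in the deposited values were 2991184 for replicate 1 and 3050685 for replicate 2. The genes that define the cell type were high in both. Pou5f1, which encodes Oct4, was at 591 and 577 RPKM, Sox2 at 175 and 180 RPKM, and Nanog at 108 and 103 RPKM in replicates 1 and 2. All 10 embryonic stem cell markers listed averaged 10 RPKM or more. A gene is called detected here where its mean RPKM over both replicates was 1 or more. Over the 10814 detected genes the replicates had a Pearson's r of 0.989 on the log2(RPKM + 1) scale, where genes are not independent replicates. In both libraries 8902 genes stood at 0. Rps6, a ribosomal protein gene named here after its value was seen, is among them, so a 0 in the table cannot be read as a silent gene.

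Fgfr1 had the most transcript of the 5 genes, followed by Fgf4 and then Fgfr3, while Fgfr2 and Fgfr4 were near the detection minimum of 1 RPKM. All 5 genes were detected, as were 46.4% of all genes, and 3 of the 5 averaged 10 RPKM or more, as did 29.4% of all genes. The ratio of Fgfr1 to Fgf4 was 2.48 in replicate 1 and 2.60 in replicate 2, and that of Fgf4 to Fgfr3 was 3.78 and 3.20. On the log2(RPKM + 1) scale Fgfr1 lay above Fgf4 by 1.33 ± 0.05 (SD, n = 2), Fgf4 above Fgfr3 by 1.72 ± 0.17, and Fgfr3 above Fgfr2 by 2.63 ± 0.16. The replicate values of these neighbours did not overlap. Fgfr2 and Fgfr4 did overlap, with a difference of 0.02 ± 0.17, positive in replicate 1 and negative in replicate 2, so their order was not resolved. With 2 values per gene an exact permutation test cannot reach the 0.05 threshold, and none was run.

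**Figure D1:**
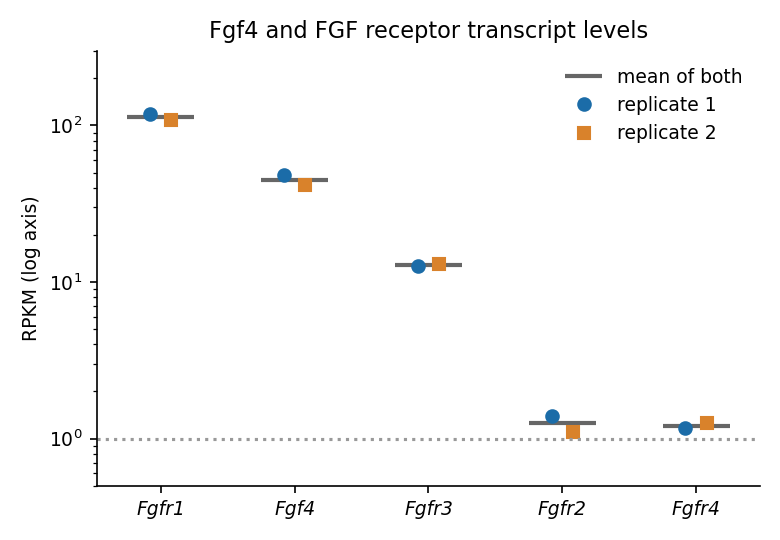
RPKM (log axis) of Fgfr1, Fgf4, Fgfr3, Fgfr2 and Fgfr4 in replicate 1 (circles) and replicate 2 (squares), with the mean as a bar and the detection minimum of 1 RPKM dotted. Fgfr1, Fgf4 and Fgfr3 are separated, and the values of Fgfr2 and Fgfr4 overlap just above 1 RPKM.

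Fgf4 (Entrez gene 116499) lies on the plus strand of chromosome 1, chr1:224895196-224896606 in the rn5 build. Its values were 48.0 RPKM (replicate 1) and 41.8 RPKM (replicate 2), a mean of 44.9 ± 4.43 RPKM (SD, n = 2). Replicate 1 was the higher, by 0.20 on the log2(RPKM + 1) scale, against an SD of 0.12 for this ratio among the 200 genes nearest in mean. The level stood at the 77.0th percentile of detected genes. The locus in the table spans 1411 bp. At the fitted read totals a model as long as the locus would hold 203 reads (replicate 1) and 180 reads (replicate 2) at most. At these totals the counting error is therefore at least 7.02% and 7.46% of the value. No model length tried, the locus included, made both Fgf4 values whole reads. The reads behind them are known only by these upper limits, which would rise if the true totals were multiples of the fitted ones.

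Among the FGF ligands Fgf4 was the second highest, after Fgf15. Of 22 ligand genes measured, 5 were detected (22.7%, against 46.4% of all genes) and 12 were listed at 0 in both replicates (54.5%, against 38.2% of all genes). Fgf15, the rodent counterpart of human FGF19 and a hormone-like ligand known from bile acid feedback, was at 78.8 and 65.8 RPKM in replicates 1 and 2. Its values lay above both values of Fgf4, and the ratio of Fgf4 to Fgf15 was 0.609 in replicate 1 and 0.635 in replicate 2. Both genes were the higher in replicate 1. Fgf15 made up 53.4% and 53.2% of the summed ligand RPKM in replicates 1 and 2, and Fgf4 made up 32.5% and 33.8%.

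Fgf5 and Fgf6, the closest relatives of Fgf4 in its subfamily, were both listed at 0 in both replicates, as was Fgf2, a ligand commonly added to cultures of primed pluripotent cells. Fgf17 was at 6.16 and 9.57 RPKM, and Fgf8, of the same subfamily and active in the gastrulating embryo, was at 4.54 and 2.93 RPKM. Fgf11, whose protein belongs to the intracellular branch of the family and is not a ligand of the receptors, was at 6.90 and 3.38 RPKM. These 3 genes were the only others of the ligand list detected, and their replicates differ widely. Genes of the intracellular branch were counted in the ligand list and in its summed RPKM. The shortest gene models that give whole reads place 12 and 19 reads behind Fgf17 and 14 and 7 reads behind Fgf11, or a common multiple of these. Fgf13, also of the intracellular branch, was at 0.666 and 0.163 RPKM. Fgf12 (0.913 RPKM), Fgf22 (0.684 RPKM), Fgf21 (0.533 RPKM) and Fgf23 (0.442 RPKM) had a value in replicate 1 and were listed at 0 in replicate 2.

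**Figure D2:**
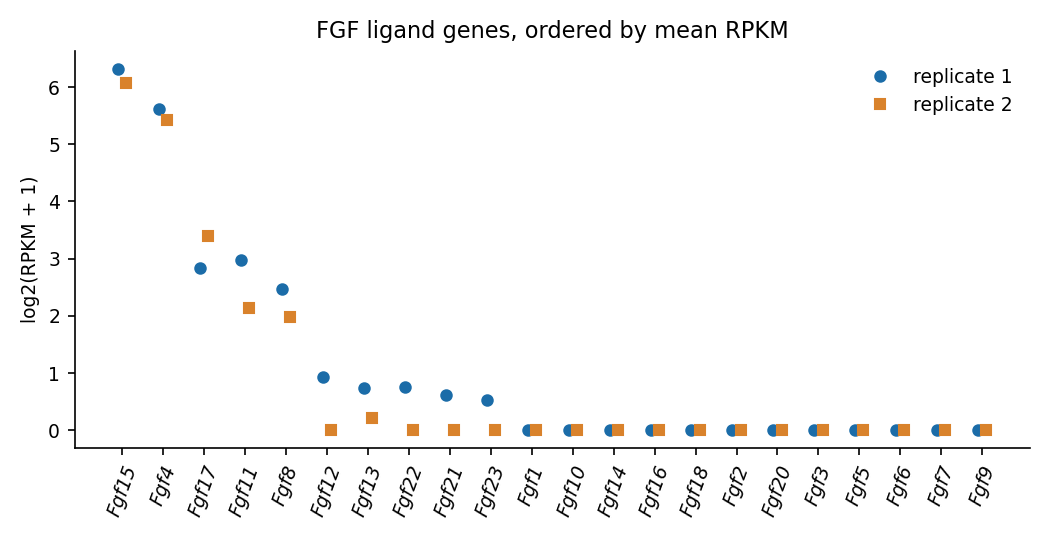
Log2(RPKM + 1) of the 22 FGF ligand genes, ordered by mean, in replicate 1 (circles) and replicate 2 (squares). Fgf15 and Fgf4 stand apart from Fgf17, Fgf11 and Fgf8, and 12 genes lie at 0 in both replicates.

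Fgf4 lies between 2 other FGF genes, and the levels of these neighbours were unlike each other. Fgf3, whose locus ends 18.9 kb before Fgf4, was listed at 0 in both replicates. Fgf15, whose locus begins 31.2 kb beyond Fgf4, was the ligand gene with the most transcript. The window of 500 kb on each side holds 15 other genes. With Fgf4 counted, 8 of the 16 genes were detected, 5 averaged 10 RPKM or more and 5 were listed at 0 in both replicates. These shares of 50.0%, 31.2% and 31.2% lie near those of all genes, 46.4%, 29.4% and 38.2%. Named after their values were seen, Oraov1 was at 6.90 and 7.19 RPKM and Ccnd1, which encodes cyclin D1, at 2.46 and 2.93 RPKM on the far side of Fgf15. Both values of each lay below those of Fgf4 and Fgf15. The genes nearest to Fgf4 in level over the 2 replicates were Ubfd1, Slmo2 and Slc37a4, at distances of 0.01, 0.02 and 0.03 on the log2(RPKM + 1) scale. With 2 libraries this likeness is one of level only.

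**Figure D3:**
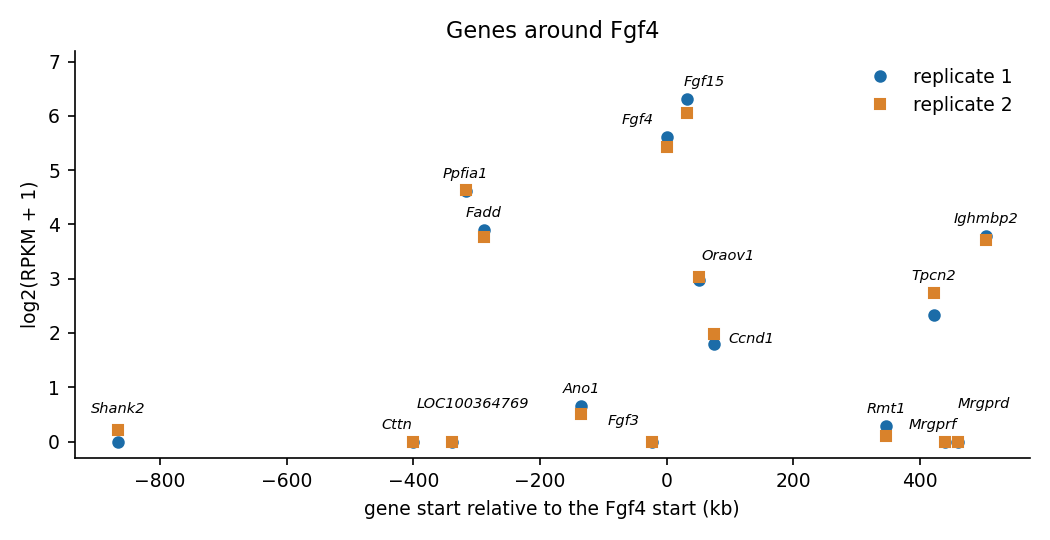
Log2(RPKM + 1) of genes whose locus reaches within 500 kb of Fgf4, against the distance of each gene's start from the Fgf4 start in kb, in replicate 1 (circles) and replicate 2 (squares). Fgf4 and Fgf15 are the highest points, and Fgf3 beside them lies at 0.

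The 250 bases before the RefSeq start are shown for Fgf4 and for the 3 receptor genes with an entry in the promoter table, since they let the base composition be read beside the levels. The sequences are from RefSeq on the GRCr8 build, on the gene's own strand. Capitals mark GGGCGG or its reverse complement CCGCCC, the GC box that Sp1 factors bind, and TATATA, which reads the same on both strands. The motifs were chosen after the sequences were seen.
Fgf4, chr1:209452979-209453228, plus strand: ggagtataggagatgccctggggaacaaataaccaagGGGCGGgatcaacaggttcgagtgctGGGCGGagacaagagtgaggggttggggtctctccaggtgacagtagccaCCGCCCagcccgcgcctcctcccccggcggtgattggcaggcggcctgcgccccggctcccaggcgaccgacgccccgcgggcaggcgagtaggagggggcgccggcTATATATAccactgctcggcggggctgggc
Fgfr3, chr14:81227210-81227459, minus strand: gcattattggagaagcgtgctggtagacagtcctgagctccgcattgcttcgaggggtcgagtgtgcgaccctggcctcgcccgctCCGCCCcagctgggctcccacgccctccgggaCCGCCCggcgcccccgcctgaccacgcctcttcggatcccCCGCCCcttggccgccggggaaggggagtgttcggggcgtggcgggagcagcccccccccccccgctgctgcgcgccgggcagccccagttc
Fgfr2, chr1:194280915-194281164, minus strand: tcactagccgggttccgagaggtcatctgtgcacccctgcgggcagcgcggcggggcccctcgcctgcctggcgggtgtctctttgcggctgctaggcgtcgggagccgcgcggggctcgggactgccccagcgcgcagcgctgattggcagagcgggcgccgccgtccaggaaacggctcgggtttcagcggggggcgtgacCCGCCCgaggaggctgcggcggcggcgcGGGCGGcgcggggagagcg
Fgfr4, chr17:9481390-9481639, minus strand: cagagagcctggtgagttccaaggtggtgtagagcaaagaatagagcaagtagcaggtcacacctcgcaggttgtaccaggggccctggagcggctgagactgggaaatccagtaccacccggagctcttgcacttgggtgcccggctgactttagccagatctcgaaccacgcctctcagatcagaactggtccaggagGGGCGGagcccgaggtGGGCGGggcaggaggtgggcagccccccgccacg

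All 4 windows hold the GC box, 3 times in Fgf4, 3 times in Fgfr3, 2 times in Fgfr2 and 2 times in Fgfr4. It is found in 30.5% of the 33469 promoter windows of this length. TATATA is present in the Fgf4 window alone of these 4, as 2 overlapping matches that begin 30 and 28 bases before the start, where a TATA box usually lies. It is found in 5.45% of all windows. CCAAT or its reverse complement ATTGG is present 1 time each in Fgf4, Fgfr2 and Fgfr3, and in 34.0% of all windows, and none of the 4 holds TATAAA or its reverse complement TTTATA, found in 12.9%. G and C make up 68.8% of the Fgf4 window, 74.4% for Fgfr3, 76.8% for Fgfr2 and 62.8% for Fgfr4, against a median of 51.2% over all windows. Fgfr2, near 1 RPKM, had the window richest in G and C of the 4. The Fgf3 window holds neither the GC box nor TATATA, with 55.2% G and C. These matches are letters in a window and were not tested as sites.

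Among the receptors Fgfr1 made up most of the transcript. Fgfr1 (Entrez gene 79114, minus strand, chr16:70925604-70965251 in rn5) reached 119 RPKM (replicate 1) and 109 RPKM (replicate 2), a mean of 114 ± 7.27 RPKM (SD, n = 2). This was 88.6% and 87.6% of the summed RPKM of the 4 receptors, which came to 134 and 124 RPKM. In mouse embryonic stem cells the Fgfr1 protein is known as the main receptor for Fgf4. The shortest gene model that gives whole reads, 823 bp, puts 293 and 273 reads behind the values, and the true model may be a multiple of it. With these fewest reads the 95% Poisson interval was 106 to 133 RPKM in replicate 1 and 96.2 to 122 RPKM in replicate 2, and the intervals overlap. They cover counting error only. The gene stood at the 92.8th percentile of detected genes. Those nearest in level were Rpl29, Thoc4 and Arpc4, at distances of 0.01, 0.02 and 0.02 on the log2(RPKM + 1) scale over the 2 replicates. A pseudogene of Fgfr1, Fgfr1-ps1, is listed in RefSeq, and how reads shared between it and Fgfr1 were counted is not given.

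Fgfr3 (Entrez gene 84489, minus strand, chr14:82962626-82976486 in rn5), a receptor best known as a brake on growth of the long bones, was at 12.7 and 13.1 RPKM in replicates 1 and 2, a mean of 12.9 ± 0.261 RPKM. The replicates lay closer together than those of Fgfr1 and Fgf4, at 0.04 on the log2(RPKM + 1) scale. At least 121 and 127 reads lay behind them. Fgfr3 made up 9.45% and 10.5% of the receptor sum, and Fgfr1 exceeded it 9.38-fold in replicate 1 and 8.32-fold in replicate 2. Its level was at the 43.1st percentile of detected genes, close to their median of 16.7 RPKM.

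Fgfr2 (Entrez gene 25022, minus strand, chr1:207626732-207731841 in rn5) marks primitive endoderm and trophectoderm in the mouse blastocyst. It was at 1.401 and 1.10 RPKM, a mean of 1.25 ± 0.214 RPKM. Fgfr4 (Entrez gene 25114, minus strand, chr17:12099383-12113632 in rn5), the liver receptor for FGF19, was at 1.17 and 1.25 RPKM, a mean of 1.21 ± 0.0576 RPKM. The reads behind these values are known only within limits, which hold for the fitted read totals. The fewest that fit are 10 and 8 reads for Fgfr2 and 11 and 12 reads for Fgfr4, with 95% Poisson intervals of 0.672 to 2.58 RPKM and 0.474 to 2.16 RPKM for Fgfr2, and 0.584 to 2.09 RPKM and 0.647 to 2.19 RPKM for Fgfr4. A model as long as the locus would hold 49.9 and 54.4 reads for Fgfr4, a counting error of at least 14.2% and 13.6%, so the small SD between its replicates does not measure its precision. For Fgfr2 the same limit is 440 and 352 reads. Each made up about 1% of the receptor sum, 0.964% ± 0.112 for Fgfr2 and 0.940% ± 0.0967 for Fgfr4 (SD, n = 2). RPKM per gene does not separate the splice forms of the receptors, which differ in the ligands they bind.

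Markers of other cell types were uneven. Of 10 primitive endoderm markers Sox17 alone was detected (10%, against 46.4% of all genes). In both replicates 7 of them, including Gata6, Gata4 and Foxa2, were listed at 0 (70%, against 38.2% of all genes). The list summed to 1.41 and 1.47 RPKM. Of 10 trophectoderm markers 5 reached 1 RPKM (50%, near the 46.4% of all genes). The list summed to 193 and 198 RPKM, most of it from Tfap2c and Krt18. Also detected were Eomes at 21.6 and 22.3 RPKM, Krt8 at 3.61 and 2.95 RPKM and Cdx2 at 2.45 and 1.76 RPKM. Elf5 and Krt7 lay below 1 RPKM, and Gata3, Hand1 and Plac1 were listed at 0. Of 12 fibroblast and feeder markers 4 reached 1 RPKM (33.3%, against 46.4% of all genes). Their sum was 105 and 122 RPKM, almost all from Fbln1 at 98.8 and 110 RPKM. The others detected were Col1a1 at 3.39 and 6.02 RPKM, Col3a1 at 1.32 and 3.16 RPKM and Thy1 at 1.01 and 1.73 RPKM. All 4 were the higher in replicate 2. Of the markers below 1 RPKM, Twist1 and Postn were also the higher in replicate 2, and Dcn and Pdgfrb the higher in replicate 1. Col1a2, Lum, Acta2 and S100a4 were listed at 0. In bulk RNA fewer cells of a type and less RNA per cell cannot be told apart. The part of such cells in the receptor levels was not tested.

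No gene in the table overlaps any of the 5 loci, which matters because the library kit keeps no strand. The genes nearest to the receptors ranged from a listed 0 to 73.4 RPKM. Letm2, 4.44 kb from Fgfr1, was at 2.25 and 1.00 RPKM, and Tacc1, 319 kb away on the other side, at 2.63 and 2.66 RPKM. Beside Fgfr3, Letm1 was at 18.3 and 19.2 RPKM and Tacc3, a partner of spindle microtubules, at 73.4 and 68.4 RPKM, both above Fgfr3 itself. Beside Fgfr2, a second row of Inpp5f and LOC100911081 were listed at 0, and beside Fgfr4, LOC498705 was listed at 0 and Zfp346 was at 7.197 and 8.75 RPKM.

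Set among the receptor tyrosine kinases listed for this report and measured, Fgfr1 ranked first of 53 in each replicate. It made up 20.5% and 19.2% of their summed RPKM. The next genes were Epha2, an ephrin receptor, at 88.3 and 84.7 RPKM, the Wnt co-receptor gene Ryk at 85.1 and 87.3 RPKM, and Epha1 at 67.2 and 66.5 RPKM. Both values of Fgfr1 lay above those of Epha2, by 1.35-fold in replicate 1 and 1.28-fold in replicate 2. Fgfr3 ranked 11th, and Fgfr2 and Fgfr4 ranked 22nd and 23rd by mean. Of the 49 other receptor tyrosine kinases 21 were detected (42.9%, near the 46.4% of all genes), and the list median was 0.346 ± 0.0312 RPKM, against 0.539 RPKM over all genes. The lowest above 0 was Egfr, the receptor of epidermal growth factor, with 0.0804 RPKM in replicate 1 alone, and Ephb4 was not analysed here.

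**Figure D4:**
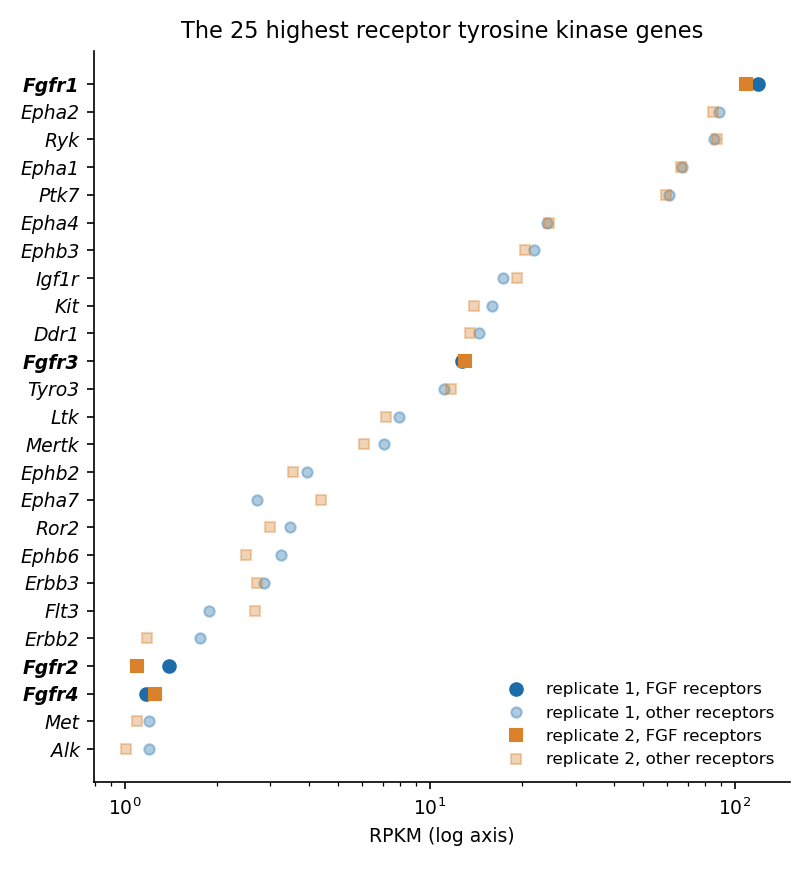
RPKM (log axis) of the 25 highest of the listed receptor tyrosine kinase genes, in replicate 1 (circles) and replicate 2 (squares). The FGF receptors have solid symbols and bold names, and the others are pale. Fgfr1 is the topmost gene, Fgfr3 lies in the middle, and Fgfr2 and Fgfr4 lie near 1 RPKM.

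Of 9 co-receptors and secreted modulators measured 5 were detected (55.6%, near the 46.4% of all genes), and 3 in replicate 2 alone. The list median was 1.14 ± 0.381 RPKM, against 0.539 RPKM over all genes. Il17rd, which encodes the transmembrane FGF inhibitor Sef, was at 34.3 and 31.1 RPKM. Fgfbp3, a carrier of FGFs, was at 3.30 and 2.86 RPKM, and Flrt3, a membrane protein that binds FGF receptors, at 2.01 and 1.04 RPKM. The lowest above 0 was Flrt1, listed at 0 in replicate 1 and at 0.240 RPKM in replicate 2. Kl, the co-receptor for Fgf23, was listed at 0, as was Fgfbp1, and Klb was not analysed here.

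Most FGF ligands need heparan sulfate, a sugar chain carried by cell surface and matrix proteins, to engage their receptors. Of its 10 core protein genes 9 were detected, against 46.4% of all genes, and the list median was 12.8 ± 0.529 RPKM. The glypican gene Gpc4 led at 128 and 129 RPKM, followed by Agrn, which encodes agrin, at 70.2 and 72.7 RPKM and Gpc1 at 41.4 and 37.6 RPKM. The lowest above 0 was the syndecan gene Sdc3 at 1.38 and 0.881 RPKM, and Gpc5 was listed at 0. Hspg2 and Gpc6 were not analysed here. Of 15 enzyme genes 11 were detected (73.3%, against the same 46.4%). The list median was 8.63 ± 1.01 RPKM, against 0.539 RPKM over all genes. Sulf2, an enzyme that strips sulfate groups from the chain, was highest at 52.7 and 58.9 RPKM. Ext2, of the chain polymerase, was at 36.5 and 38.2 RPKM and Sulf1 at 30.5 and 30.9 RPKM. Hs6st3, a sulfotransferase gene, had 0.199 RPKM in replicate 1 alone, and Ndst3, Ndst4 and Hs3st1 were listed at 0.

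Most adaptors that link the receptors to RAS, and most kinases below them, were above the median of all genes. Of 12 adaptor genes 11 were detected (91.7%, against 46.4% of all genes). The list median was 23.4 ± 1.76 RPKM, against 0.539 RPKM over all genes. Shc1 was at 108 and 112 RPKM, the phospholipase gene Plcg1 at 70.7 and 73.4 RPKM, and Ptpn11, which encodes the phosphatase Shp2, at 52.2 and 49.8 RPKM. Frs2, the docking protein used by FGF and neurotrophin receptors, is named here after its value was seen, at 19.9 and 21.2 RPKM. Gab2 was the lowest above 0 at 0.784 and 1.37 RPKM, and Crkl was listed at 0. All 13 genes of the RAS to ERK cascade were detected (100%, against the same 46.4%), and the list median was 69.7 ± 1.84 RPKM. Map2k1, which encodes the MEK1 kinase, was at 156 and 161 RPKM. The scaffold gene Ksr1 was lowest at 1.58 and 2.75 RPKM.

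Of 17 ERK response and feedback genes 16 were detected (94.1%, against 46.4% of all genes). The list median was 10.01 ± 0.695 RPKM, against 0.539 RPKM over all genes. The ETS factor gene Etv5 was at 71.2 and 74.1 RPKM, the FGF inhibitor gene Spry2 at 44.0 and 42.5 RPKM and the ERK phosphatase gene Dusp7 at 21.6 and 21.1 RPKM. Spred3 was the lowest above 0 at 0.893 and 1.75 RPKM, and Egr1, an immediate early gene, stood at 0 in both replicates. Both libraries came from 2i medium, so these levels describe that medium alone and show no effect of it.

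**Figure D5:**
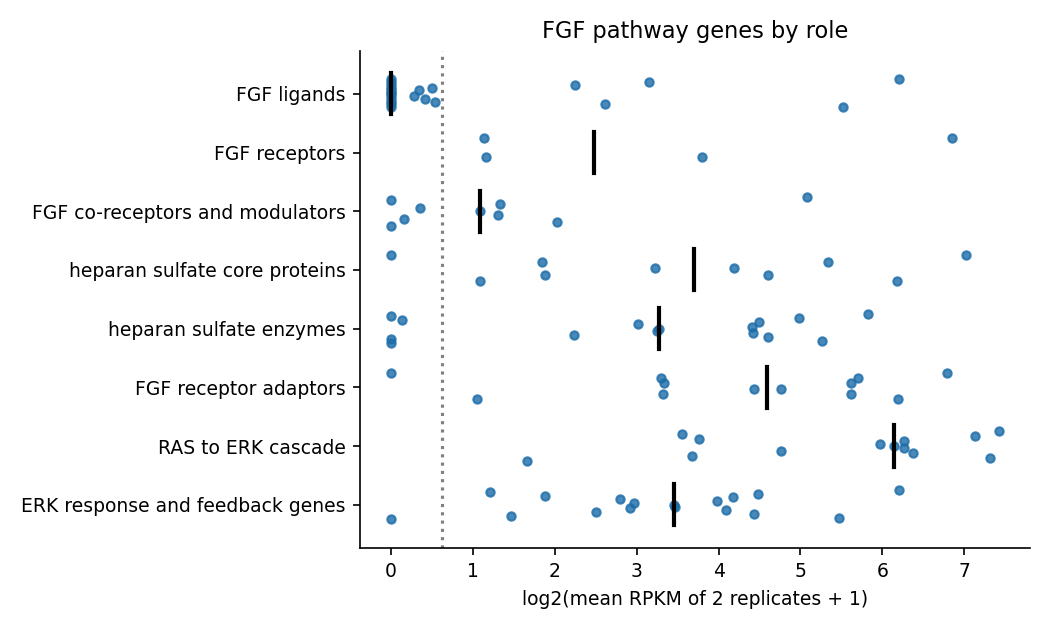
Log2(mean RPKM of 2 replicates + 1) of each measured gene (points), grouped by role in FGF signalling from ligands at the top to ERK response genes at the bottom, with list medians as black bars and the median of all genes dotted. The ligand median lies at 0, and the RAS to ERK cascade has the highest median.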

How the data were processed

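Total RNA of 2 wild-type libraries was sequenced as paired 50-bp reads, per the labels. The authors deposited 1 table of RPKM values per gene. CASAVA 1.8 and TopHat 1.4.0 and the builds rn5 and Rnor_5.0 are named, per the submitters' processing notes. How reads were counted, on which annotation, and with what rule for reads with several matches is not given in the sources used here. Loci in the table count from 1, since value steps fit only that length. Columns were matched to samples by title, and rows of the same Entrez gene were summed (420 genes).

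Read totals are the smallest that make the most, or nearly the most, rows with a locus under 6000 bp whole reads. The totals used fit 527 of 2700 rows in replicate 1 and 525 of 2688 in replicate 2 (relative tolerance 3e-07). A multiple of a total makes the same rows whole, so every read number and counting error given rests on this choice. For each gene the shortest model of 60 to 20000 bp that makes both values whole gives the fewest reads. The recovery was tested on simulated data. A simulation cannot show that the totals or the shortest models hold for the deposited values. Most of the deposited rows tried did not give whole reads at these totals, and no length tried gave them for Fgf4. Levels are means ± SD over 2 replicates, and differences are on the log2(RPKM + 1) scale, which makes those of low genes look smaller. With 1 group, no test was run. The members, gene lists and alternatives were chosen with earlier results of these data known. Named genes are the 5 members, ligands above 0, the 3 highest and lowest above 0 of each other pathway list, the nearest neighbours, the 3 genes nearest in level to Fgf4 and Fgfr1, and Pou5f1, Sox2 and Nanog. A few of the genes so chosen are not reported here. Others are named where the text says so, as members listed at 0, or as cell type markers. Alternatives were detection minimums of 0.3 and 3 RPKM, a pseudocount of 0.1, the highest row per gene, rescaling to a sum of 1000000, each replicate left out and no filter. Scripts used pandas 2.3.3, numpy 2.4.6, matplotlib 3.10.9 and scipy 1.17.1 under Python 3.11.15. Promoter sequences and Fgfr1-ps1 came from RefSeq tables of the GRCr8 assembly, in which all 5 genes matched by identifier, and 4 had a promoter.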

Additional observations from a re-analysis of the deposited data

How the results depend on the processing

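The order of Fgfr1, Fgf4 and Fgfr3 above Fgfr2 and Fgfr4 held in each replicate alone, while Fgfr2 and Fgfr4 changed places between them. Rescaling each library to a sum of 1000000 gave Fgfr1 260.4, Fgf4 103, Fgfr3 29.5, Fgfr2 2.86 and Fgfr4 2.77. The RPKM of all genes summed to 439453 and 435090 in replicates 1 and 2. All genes of a library are multiplied alike, so the higher levels are a change of unit. The log2 difference between Fgfr3 and Fgfr2 became 2.99, since the pseudocount of 1 weighs less against higher values. This difference was 3.27 with a pseudocount of 0.1. Without the filter at 1 RPKM, Fgfr1 lay at the 96.6th percentile of all genes, Fgf4 at the 89.3rd, Fgfr3 at the 73.6th, Fgfr2 at the 54.9th and Fgfr4 at the 54.7th. A minimum of 3 RPKM left 3 of the 5 members and 2 co-receptors and modulators detected, and a minimum of 0.3 RPKM gave 8 ligands. Without 1 replicate the detected co-receptors and modulators numbered 3 to 5, with 3 in replicate 2 alone. The other alternatives stayed within the spread between replicates, or within 1.5 times for counts. For levels, shares and log2 differences, leaving out 1 replicate could not do otherwise, since either of 2 values lies within 1 SD of their mean. The highest row per gene could not differ either, since each member had 1 row. These settings therefore say nothing on stability. At these read totals the order of Fgfr2 and Fgfr4 was not detectable. No paired analysis was possible because the series holds 1 group.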
